A study of Arabidopsis thaliana with 12 samples.

Results

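The genes described here are those with IAA, SAUR and GH3 symbols, 3 gene families that hold many of the genes plants switch on earliest after auxin. Members were the rows of the deposited table whose symbol is IAA, SAUR or GH3 followed by a number. This rule reads symbols and no measured value, but it was chosen with earlier results of these data known. They numbered 60 of 34218 rows, with 28 IAA, 25 SAUR and 7 GH3 genes. The 42 members with a mean of at least 1 FPKM over the 12 libraries are described (21 IAA, 17 SAUR and 4 GH3). FPKM is a gene's read count divided by its exon length and by the library total. Fold changes come from counts scaled by TMM factors, which set the bulk of genes level between libraries, so they can differ from ratios of FPKM. The other 18 lay below 1, and 2 of these had no count in any library. SAUR19 (mean 0.88 FPKM) and IAA30 (0.77) lay just outside this threshold, and SAUR22 (1.1) and IAA5 (1.2) just inside it.

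Messenger RNA of Arabidopsis thaliana leaves, labelled as taken from 14-day-old plants, was sequenced in 4 groups of 3 libraries. The groups were the line carrying pTaF5H1:TaF5H1 (a wheat gene under its own promoter) kept for 6 h in 200 mM NaCl, the same line kept in nutrient solution, wild type (Col-0) in 200 mM NaCl, and wild type in nutrient solution. These are called the salt-treated line, the untreated line, salt-treated wild type and untreated wild type. The labels name no background accession for the line, and the number of insertions it stands for and of plants per library are unknown here. The series text calls the replicates biological, and the p-values measure the spread between these libraries. The wheat transgene itself was not analysed here.

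Auxin binds the TIR1/AFB receptors together with Aux/IAA proteins, which are then destroyed. Aux/IAA proteins, encoded by the IAA genes, are repressors that sit on the auxin response factors (ARFs), so their loss lets ARFs act on promoters that include those of IAA, SAUR and GH3 genes. SAUR proteins are small proteins, several of which inhibit PP2C.D phosphatases and so keep the proton pumps of the plasma membrane active during cell expansion. GH3 enzymes join auxin, or jasmonate or salicylate-pathway compounds in other branches of the family, to amino acids, and the auxin-conjugating ones lower the free hormone. Many IAA and GH3 genes are therefore both targets of auxin and brakes on it. No group was treated with auxin, so which members respond to it was not tested here.

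Library totals lay between 17173618 and 21651124 counts. Among the libraries of the salt-treated line, replicate 1 differed most from the others over all genes (Pearson r of log2 CPM across genes 0.931 and 0.935, against 0.989 between replicates 2 and 3). Counts of called members, in all and by family, are therefore given with and without it. Leaf markers (7 photosynthesis genes) summed to 762 to 3275 FPKM in the salt-treated line, 17448 to 18620 in the untreated line, 6093 to 6398 in salt-treated wild type and 24449 to 26856 in untreated wild type. Replicate 1 held the highest sum of the salt-treated line. Among the root markers CASP1, CASP5 and EXPA7 had no count in any library, and the list summed to 27.7 to 54.2 FPKM in the salt-treated line, 2.49 to 4.94 in the untreated line, 7.89 to 13.8 in salt-treated wild type and 1.49 to 3.4 in untreated wild type, with BGLU23 (PYK10) alone at 27.5 to 54.2 FPKM in the salt-treated line and 1.08 to 13.3 FPKM in the other groups. The 4 flower markers summed to at most 3.88 FPKM in any library. The part of these marker shifts in the results was not tested, and in such bulk samples fewer cells of a type and less RNA per cell cannot be told apart.

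The stretches before 4 members are printed as examples of those that differed between genotypes under salt, as described further on. Each is the 300 bases before the annotated gene start, from the RefSeq TAIR10.1 genome, in which all 60 members have the same start and end as in the deposited TAIR10 table. Letters run 5′ to 3′ towards the gene. Capitals mark TGTCTC, the auxin response element read by ARFs, the G-box CACGTG and ACGTGG, a core of the abscisic acid response element, each searched on both strands. ACGTGG and CACGTG can share bases, as they do before IAA19.
IAA19, chr3:5263701-5264000, plus strand: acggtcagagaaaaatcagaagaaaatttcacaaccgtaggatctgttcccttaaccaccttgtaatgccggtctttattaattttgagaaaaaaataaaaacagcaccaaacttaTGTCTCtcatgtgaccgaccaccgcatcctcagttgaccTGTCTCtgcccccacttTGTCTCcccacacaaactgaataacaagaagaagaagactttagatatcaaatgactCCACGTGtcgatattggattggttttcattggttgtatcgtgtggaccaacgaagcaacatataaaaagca
GH3.3, chr2:9866563-9866862, minus strand: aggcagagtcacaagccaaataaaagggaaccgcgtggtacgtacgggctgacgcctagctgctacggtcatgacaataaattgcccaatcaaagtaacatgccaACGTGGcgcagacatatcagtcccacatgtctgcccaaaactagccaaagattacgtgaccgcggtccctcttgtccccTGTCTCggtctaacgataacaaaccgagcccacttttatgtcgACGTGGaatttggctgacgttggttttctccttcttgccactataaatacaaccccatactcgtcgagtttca
GH3.5, chr4:13653279-13653578, plus strand: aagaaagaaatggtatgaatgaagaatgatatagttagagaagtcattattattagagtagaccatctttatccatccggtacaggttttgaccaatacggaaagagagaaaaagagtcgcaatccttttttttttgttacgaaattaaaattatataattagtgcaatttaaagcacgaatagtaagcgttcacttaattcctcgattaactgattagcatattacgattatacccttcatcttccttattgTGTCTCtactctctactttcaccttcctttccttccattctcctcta
GH3.6, chr5:22133689-22133988, minus strand: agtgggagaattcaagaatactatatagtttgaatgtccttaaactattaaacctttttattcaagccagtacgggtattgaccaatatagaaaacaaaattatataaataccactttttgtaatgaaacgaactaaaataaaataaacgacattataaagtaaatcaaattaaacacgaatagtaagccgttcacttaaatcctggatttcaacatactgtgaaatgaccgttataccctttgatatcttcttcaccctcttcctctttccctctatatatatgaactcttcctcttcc

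The IAA19 window holds TGTCTC 3 times, beginning 184, 145 and 128 bases before the gene, and a G-box beginning 70 bases before it. The GH3.3 window holds 1 TGTCTC at 116 bases and ACGTGG at 195 and 73 bases. The GH3.5 window holds 1 TGTCTC at 47 bases. None of these letters occur in the window of GH3.6, nor in those of GH3.17 and IAA26, which are not printed. Over the described members, TGTCTC lay in 13 of 42 windows (31.0%), namely 6 of 21 IAA, 5 of 17 SAUR and 2 of 4 GH3 genes, against 13.0% of the windows of all 27443 protein-coding genes. The variant TGTCGG lay in 7 of 42 (16.7%), 6 of them IAA genes, against 4.91%. CACGTG lay in 2 of 42 (4.76%, IAA7 and IAA19) against 7.09%, and ACGTGG in 3 of 42 (7.14%, with GH3.3) against 9.13%. A match describes the letters in the window, and a missing match says nothing of a factor.

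Levels across the 4 groups are given by family, and the same counts were not made over all genes. The group mean was lowest in the salt-treated line for 28 of the 42 members (16 IAA and 12 SAUR), and highest in untreated wild type for 24 (12 IAA and 12 SAUR). All 4 GH3 genes, but also 2 IAA and 3 SAUR genes, were highest in the salt-treated line. The group mean reached 1 FPKM in all 4 groups for 25 members, in 3 groups for 6, in 2 groups for 10 and in 1 group for SAUR22. IAA5, IAA29, SAUR20, SAUR21, SAUR22, SAUR23, SAUR62, SAUR63, SAUR64, SAUR67 and GH3.17 were those that reached it in 1 or 2 groups, so they passed the expression threshold through the groups in which they were high.

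**Figure D1:**
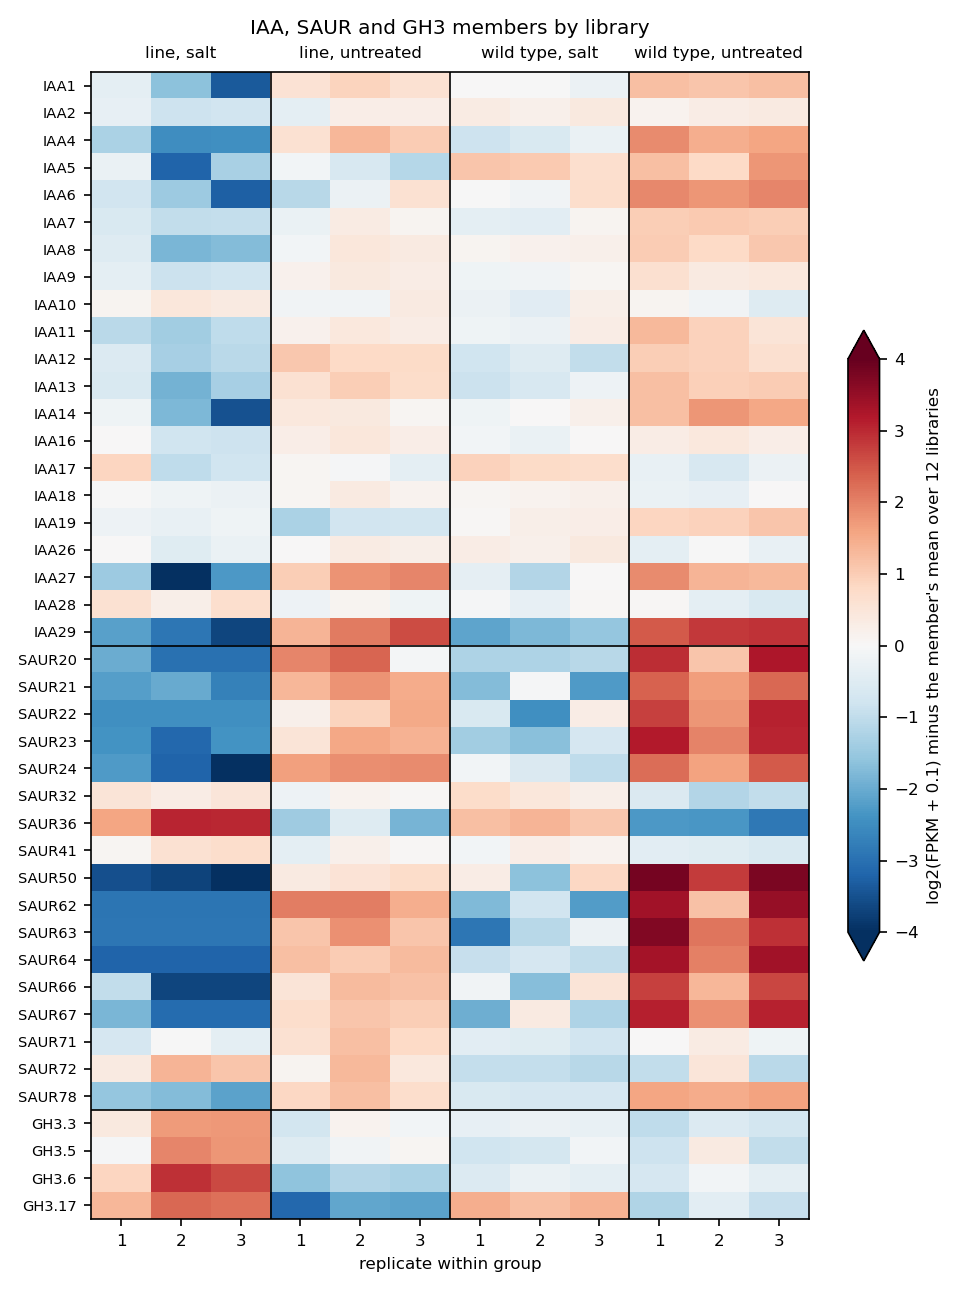
Each row is 1 of the 42 members and each column 1 library (line, salt; line, untreated; wild type, salt; wild type, untreated; replicates 1 to 3). Colour gives log2(FPKM + 0.1) minus the member's mean over the 12 libraries, with red above and blue below. Most IAA rows and most SAUR rows are blue in the salt-treated line, whereas the 4 GH3 rows and SAUR36 are red there in replicates 2 and 3 and paler in replicate 1 (GH3.5 is near white).

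With salt most called IAA and SAUR genes were lower, and the called GH3 genes higher, in both genotypes. In the line 9 members were called higher and 24 lower by edgeR's quasi-likelihood test at an adjusted p under 0.05, so 33 of 42 were called (78.6%), beside 64.8% of all 17038 genes tested (31.4% higher and 33.5% lower). Without replicate 1 of the salt-treated line 38 members were called, 10 higher and 28 lower, beside 71.2% of all genes. In wild type 7 members were higher and 21 lower, 28 of 42 (66.7%), beside 53.8% of all genes (27.1% higher and 26.7% lower). The median log2 fold change over members was -1.22 in the line and -0.90 in wild type, beside -0.05 and -0.02 over all genes tested. Without replicate 1 the counts in wild type were 8 higher and 25 lower, beside 63.5% of all genes, since all libraries share 1 estimate of the spread. No called value changed direction in any setting that gave it a value.

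**Figure D2:**
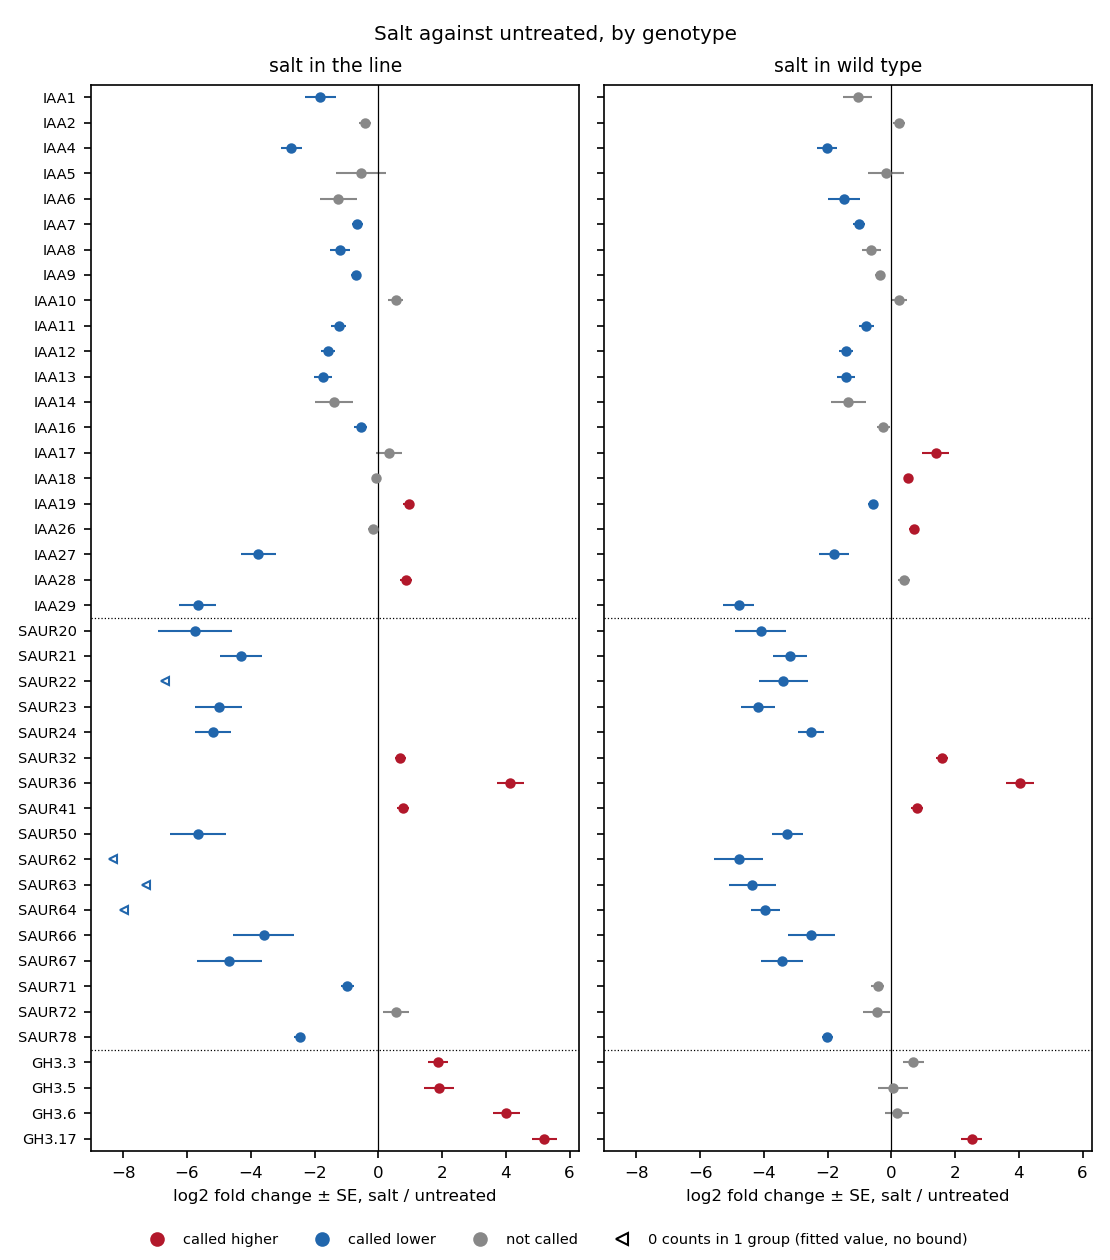
Log2 fold change of salt against untreated for the 42 members, in the line (left) and in wild type (right), from the edgeR fit to counts, with bars for the standard error. Red points were called higher, blue ones lower and grey ones not called, and open triangles mark members with no count in the salt-treated line, for which the fitted value is no bound. In the line all but 1 of the 13 SAUR genes called lower lie at or left of -2.46, and the 4 GH3 values in the line lie to the right of 0.

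Among the called Aux/IAA genes more were lower than higher with salt. In the line 2 were called higher and 11 lower of 21 (61.9%), and in wild type 3 higher and 9 lower (57.1%), shares near the 64.8% and 53.8% of all genes, with median log2 fold changes of -0.70 and -0.63. Without replicate 1 of the salt-treated line the counts were 3 higher and 15 lower in the line, and 3 higher and 13 lower in wild type. IAA29 (AT4G32280, chromosome 4, 15583332 to 15584903 in TAIR10), a gene known as a target of the PIF light-signalling factors in shade, was nearly lost. It had 0.18, 0.07 and 0 FPKM in the salt-treated line, against 3.16, 5.22 and 7.55 in the untreated line (log2 fold change -5.67 ± 0.57, edgeR adjusted p = 6.2e-06). In wild type it had 0.19, 0.26 and 0.33 FPKM with salt, against 6.86, 8.83 and 9.33 without (-4.79 ± 0.48, edgeR adjusted p = 7.7e-06). The salt-treated and untreated libraries did not overlap in either genotype. IAA29 passed the expression threshold through the untreated groups.

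IAA4 (AT5G43700, chromosome 5, 17550179 to 17551715) had 6.44, 2.72 and 2.79 FPKM in the salt-treated line, against 24.0, 39.7 and 32.05 in the untreated line (log2 fold change -2.74 ± 0.33, edgeR adjusted p = 2.7e-05). In wild type IAA4 stood at 8.89, 10.3 and 13.03 FPKM with salt, against 59.1, 43.6 and 47.0 without (-2.02 ± 0.32, edgeR adjusted p = 0.00023). Both falls separated all libraries, and replicate 1 was the highest of the salt-treated line. IAA27 had 2.11, 0.26 and 1.11 FPKM in the salt-treated line, against 11.6, 20.9 and 23.3 in the untreated line (log2 fold change -3.77 ± 0.55, edgeR adjusted p = 0.0001). In wild type it had 4.53, 2.57 and 6.01 FPKM with salt, against 22.1, 15.3 and 14.7 without (-1.80 ± 0.48, edgeR adjusted p = 0.0076). IAA27 overlaps an antisense row, AT4G29070, with a mean of 56.6 FPKM, and since the counting is not stated to use strand its values are uncertain. The 7 other described members that overlap an antisense row have partners with means of at most 0.348 FPKM.

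A minority of Aux/IAA genes were higher with salt, 2 in the line and 3 in wild type. In the line these were IAA19, whose product acts in hypocotyl bending, and IAA28, known for restraining lateral root formation. IAA28 had 16.2, 12.5 and 17.02 FPKM in the salt-treated line, against 9.26, 11.4 and 9.45 in the untreated line (log2 fold change 0.86 ± 0.19, edgeR adjusted p = 0.0017), with no overlap. Its wild-type values were 10.3, 8.34 and 10.9 FPKM with salt, against 10.9, 8.08 and 6.96 without, which overlap (0.39 ± 0.19, edgeR adjusted p = 0.1). The difference between the genotypes in this response did not pass the test (0.48 ± 0.27, edgeR adjusted p = 0.26).

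In wild type IAA17, IAA26 and IAA18 were the higher ones. IAA17 (AXR3) had 17.2, 15.3 and 14.6 FPKM in salt-treated wild type, against 7.29, 5.75 and 7.64 in untreated wild type (log2 fold change 1.39 ± 0.41, edgeR adjusted p = 0.014). Its salt-treated line values were 16.4, 4.42 and 5.13 FPKM, against 9.55, 8.71 and 6.83 in the untreated line, so replicate 1 lay above all untreated line libraries and replicates 2 and 3 below them (0.32 ± 0.41, edgeR adjusted p = 0.51). Without replicate 1, IAA17 was called lower with salt in the line (-0.55, edgeR adjusted p = 0.02). IAA18 had 41.0, 43.3 and 45.5 FPKM in salt-treated wild type, against 32.5, 31.1 and 39.9 in untreated wild type (log2 fold change 0.52 ± 0.13, edgeR adjusted p = 0.0061), and 39.1, 35.0 and 33.3 FPKM in the salt-treated line, against 41.6, 50.6 and 43.1 in the untreated line (-0.07 ± 0.13, edgeR adjusted p = 0.66), where the FPKM do not overlap. Leaving out replicate 2 of untreated wild type ended the call of IAA17 (adjusted p 0.053).

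The remaining Aux/IAA genes are given by the range of their 4 group means. IAA7 (AXR2), at 25.7 to 92.6 FPKM, was called lower with salt in the line (-0.66) and in wild type (-1.02). So were IAA11 at 1.69 to 7.53 FPKM (-1.25 and -0.78), IAA12 (BODENLOS, which pairs with ARF5 in the embryo) at 5.99 to 21.6 FPKM (-1.59 and -1.42) and its close relative IAA13 at 3.73 to 18.1 FPKM (-1.73 and -1.43). IAA1 at 3.1 to 18.4 FPKM, IAA8 at 16.5 to 76.3, IAA9 at 38.3 to 85.5 and IAA16 at 52.4 to 93.0 were called lower in the line (log2 fold changes -1.82, -1.20, -0.70 and -0.56) and not in wild type, where their fold changes were -1.06, -0.63, -0.35 and -0.25. IAA6 at 0.89 to 10.3 FPKM was called lower in wild type (-1.49) and not in the line (-1.26). IAA2 at 56.5 to 108 FPKM, IAA5 at 0.32 to 2.21, IAA10 at 2.94 to 4.13 and IAA14 at 0.80 to 5.97 were not called with salt in either genotype. Without replicate 1 of the salt-treated line IAA14 was called lower in both (-2.72 in the line and -1.32 in wild type), IAA2 and IAA6 lower in the line (-0.59 and -1.88), IAA10 higher in the line (0.64), and IAA1, IAA8 and IAA9 lower in wild type too (-1.03, -0.60 and -0.33). None of IAA2, IAA5, IAA10 and IAA14, nor IAA1, IAA6, IAA8, IAA9 and IAA16, passed the test of a difference in salt response between genotypes in the full data.

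Some of these calls rested on single libraries. In the line the call of IAA16 was lost without any 1 of 10 libraries, namely replicates 2 and 3 of the salt-treated line, replicates 1 to 3 of the untreated line, replicates 1 to 3 of salt-treated wild type and replicates 1 and 3 of untreated wild type (adjusted p up to 0.14), while its log2 fold change was -0.89 once replicate 1 of the salt-treated line was dropped. In wild type IAA6 lost its call without replicate 1 or 2 of salt-treated or replicate 1 or 3 of untreated wild type (adjusted p up to 0.094). IAA11 lost it in wild type without replicate 1 or 2 of salt-treated or replicate 1 of untreated wild type (up to 0.083).

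SAUR genes had the lowest median of the 3 families. The median log2 fold changes with salt were -4.67 in the line and -3.18 in wild type. In the line 3 of 17 were called higher and 13 lower (94.1% called, beside 64.8% of all genes tested). In wild type 3 were called higher and 12 lower (88.2%, beside 53.8%). These counts were the same without replicate 1 of the salt-treated line. With the 4 members that had no count in the salt-treated line set at their counting bound, the line's median was -4.31. Of the 17, SAUR22 reached a group mean of 1 FPKM in 1 group and 7 others in 2, all of them untreated groups. They passed the expression threshold through the groups in which they were high, so their part in these medians depends on it. Most of the called falls were in 2 tandem groups of related copies, SAUR20 to SAUR24 on chromosome 5 and SAUR62 to SAUR67 on chromosome 1. The proteins of the first group are known to drive cell expansion by inhibiting PP2C.D phosphatases, and SAUR63 of the second to promote organ elongation. Coding sequences of SAUR19 to SAUR24 were 87.7% to 95.2% identical over the longer of each pair (median 91.2%, 15 pairs), and those of the SAUR62 to SAUR68 group 60.6% to 90.7% (median 81.9%, 15 pairs). How reads that match several copies were counted is not given in the sources used here, so the values of single copies are uncertain.

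The first 60 coding bases of the first group show how little separates the copies. They are read from RefSeq TAIR10.1, capitals mark bases that differ from the commonest base at that position (at the 1 position with 3 copies of a and 3 of t, the t), and 48 of the 60 positions are alike in all 6.
SAUR19, chr5:5963246-5963305, minus strand: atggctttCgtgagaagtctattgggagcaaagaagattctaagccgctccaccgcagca
SAUR20, chr5:5966521-5966580, minus strand: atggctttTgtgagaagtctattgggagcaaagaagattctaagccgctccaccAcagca
SAUR21, chr5:5968527-5968586, plus strand: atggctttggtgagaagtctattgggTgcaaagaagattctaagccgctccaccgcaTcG
SAUR22, chr5:5974904-5974963, minus strand: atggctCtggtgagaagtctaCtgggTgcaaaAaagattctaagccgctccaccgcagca
SAUR23, chr5:5976030-5976089, plus strand: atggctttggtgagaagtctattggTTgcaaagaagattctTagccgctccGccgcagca
SAUR24, chr5:5983840-5983899, plus strand: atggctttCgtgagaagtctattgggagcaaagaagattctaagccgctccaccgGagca

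In the chromosome 1 group SAUR62 had 0, 0 and 0 FPKM in the salt-treated line, against 3.03, 3.01 and 1.98 in the untreated line, with 0 counts over the group, against 135, at least 42.4-fold lower. SAUR64 had 0, 0 and 0 FPKM, against 1.98, 1.75 and 2.11, at least 33.3-fold lower, and SAUR63 0, 0 and 0 FPKM, against 1.48, 2.53 and 1.49, at least 21.0-fold lower. These bounds set 3 counts over the salt-treated group and cover counting error only. All 3 were called lower (edgeR adjusted p = 0.00045 for SAUR62, 5e-05 for SAUR64 and 0.0013 for SAUR63). In wild type SAUR62 had 0.12, 0.34 and 0.06 FPKM with salt, against 7.62, 1.61 and 8.28 without (log2 fold change -4.79 ± 0.77, edgeR adjusted p = 0.00054). SAUR63 had 0, 0.24 and 0.53 FPKM with salt, against 9.57, 3.2 and 5.49 without (-4.36 ± 0.74, edgeR adjusted p = 0.00081). SAUR64 had 0.38, 0.47 and 0.36 FPKM with salt, against 8.97, 3.56 and 9.26 without (-3.95 ± 0.45, edgeR adjusted p = 5.8e-05). In untreated wild type, replicate 2 was the lowest of the 3 libraries for each of these members, yet it stayed above every salt-treated library.

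SAUR66, at group means of 0.18 to 6.54 FPKM, and SAUR67, at 0.05 to 5.74 FPKM, were called lower with salt in both genotypes (log2 fold changes -3.59 and -4.67 in the line, -2.50 and -3.42 in wild type). In the salt-treated line both had counts in replicate 1 alone, and without it the fitted values were -8.45 and -7.50, which are no bounds since no count was left. Summed counts of SAUR67 were 2 in the salt-treated line and 76 in the untreated line, a ratio of 35.8 with a 95% exact binomial interval of 9.58 to 301. The wild-type call of SAUR66 ended without replicate 2 of salt-treated wild type (adjusted p 0.053).

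In the chromosome 5 group SAUR23 had 0.07, 0 and 0.07 FPKM in the salt-treated line, against 1.16, 2.49 and 2.22 in the untreated line, or 2 against 96 counts (ratio 45.2, interval 12.2 to 379). In wild type it had 0.24, 0.18 and 0.46 FPKM with salt, against 7.84, 3.37 and 7.15 without (log2 fold change -4.18 ± 0.53, edgeR adjusted p = 4.9e-05). SAUR24, the most abundant of the group, had group means of 0.17 FPKM in the salt-treated line, 7.81 in the untreated line, 1.49 in salt-treated and 9.92 in untreated wild type, and was called lower with salt in both (-5.19 and -2.52). All 5 described members of the group fell in both genotypes. SAUR20 (group means 0.03 to 5.02 FPKM) and SAUR22 (0 to 3.31) were at 1 and 0 counts in the salt-treated line, against 92 and 44 in the untreated line, which gives a ratio of 86.7 (interval 15.2 to 3460) for SAUR20 and at least 13.8-fold lower for SAUR22. SAUR21 (0.13 to 4.73) fell by 4.31 on the log2 scale in the line and by 3.18 in wild type.

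**Figure D3:**
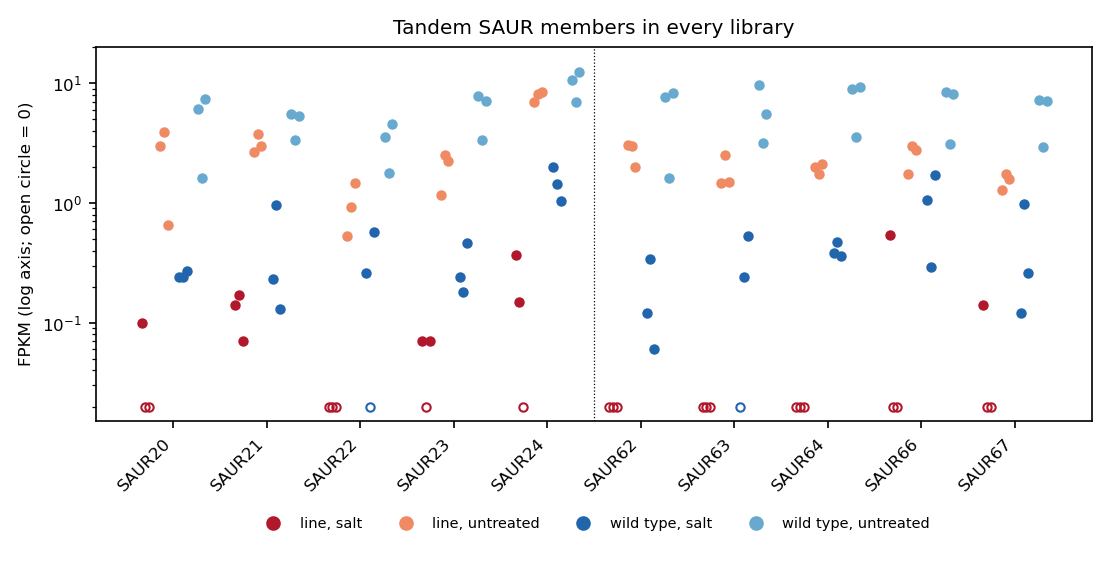
FPKM on a log axis for the 10 described members of the 2 tandem SAUR groups, with 1 point per library in the order line with salt, line untreated, wild type with salt and wild type untreated, and open circles at the foot for 0. Within each genotype every salt-treated point lies below every untreated one, and for SAUR20, SAUR23, SAUR24, SAUR62 and SAUR64 all points of the salt-treated line lie below those of salt-treated wild type.

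Outside the tandem groups SAUR50 (AT4G34760, chromosome 4, 16582183 to 16583075), which acts in cotyledon opening in the light, had 0.07, 0.05 and 0 FPKM in the salt-treated line, against 2.38, 2.76 and 3.13 in the untreated line, or 2 against 149 counts (ratio 70.2, interval 19.1 to 585). In wild type it had 2.27, 0.53 and 3.36 FPKM with salt, against 27.3, 13.3 and 26.5 without (log2 fold change -3.27 ± 0.49, edgeR adjusted p = 0.00016). SAUR78, known to bind ethylene receptors, had 11.4, 10.2 and 7.56 FPKM in the salt-treated line, against 60.8, 77.9 and 55.6 in the untreated line (log2 fold change -2.46 ± 0.18, edgeR adjusted p = 5.1e-07). Its wild-type values were 22.04, 21.3 and 21.4 FPKM with salt, against 101, 96.2 and 103 without (-2.01 ± 0.17, edgeR adjusted p = 2.3e-06). All salt-treated libraries of SAUR78 lay below all untreated ones in both genotypes. SAUR71 at 24.5 to 67.4 FPKM was called lower in the line (-0.98) and not in wild type (-0.42), and that difference did not pass the test (-0.56 ± 0.29, edgeR adjusted p = 0.23). SAUR72 at 16.4 to 66.4 FPKM was the 1 SAUR gene called with salt in neither genotype (0.55 and -0.47).

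The same 3 SAUR genes were called higher with salt in both genotypes, SAUR36, SAUR32 and SAUR41. SAUR36 (AT2G45210, chromosome 2, 18641563 to 18642739), known as a promoter of leaf senescence, had 16.5, 45.8 and 44.7 FPKM in the salt-treated line, against 1.98, 3.76 and 1.44 in the untreated line (log2 fold change 4.14 ± 0.41, edgeR adjusted p = 6e-06). In wild type it had 12.7, 14.3 and 11.7 FPKM with salt, against 1.04, 1.01 and 0.66 without (4.04 ± 0.44, edgeR adjusted p = 1.7e-05). It was the member with the largest rise in wild type, and no salt-treated library overlapped an untreated one. SAUR32 had 51.8, 44.5 and 51.2 FPKM in the salt-treated line, against 31.7, 40.0 and 37.7 in the untreated line (log2 fold change 0.69 ± 0.18, edgeR adjusted p = 0.0057), and 60.7, 50.2 and 42.7 FPKM in salt-treated wild type, against 24.4, 16.1 and 18.2 in untreated wild type (1.59 ± 0.19, edgeR adjusted p = 2.9e-05). SAUR41, of a subfamily that also holds SAUR71 and SAUR72, had 15.3, 22.2 and 23.5 FPKM in the salt-treated line, against 10.9, 16.6 and 14.9 in the untreated line (log2 fold change 0.78 ± 0.19, edgeR adjusted p = 0.0034), and 13.3, 17.5 and 15.9 FPKM in salt-treated wild type, against 10.8, 10.3 and 9.48 in untreated wild type (0.81 ± 0.19, edgeR adjusted p = 0.0039). In the line the SAUR41 libraries overlapped, since replicate 1 with salt lay below replicate 2 without.

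All 4 GH3 genes were called higher with salt in the line (100%, beside 64.8% of all genes tested). In wild type 1 was called higher (25.0%, beside 53.8%), or 2 without replicate 1 of the salt-treated line. The median log2 fold change of the 4 genes was 2.96 in the line and 0.43 in wild type. GH3.17 joins auxin to glutamate, and GH3.3, GH3.5 and GH3.6 join it to aspartate and other amino acids. GH3.17 (AT1G28130, chromosome 1, 9825169 to 9828118) had 3.64, 7.12 and 6.80 FPKM in the salt-treated line, against 0.07, 0.25 and 0.24 in the untreated line (log2 fold change 5.20 ± 0.40, edgeR adjusted p = 7.7e-07). In wild type it had 3.98, 3.34 and 3.76 FPKM with salt, against 0.55, 1.00 and 0.68 without (2.52 ± 0.34, edgeR adjusted p = 7.2e-05). It was the 1 GH3 gene called in both genotypes, and it passed the expression threshold through the salt-treated groups.

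GH3.6 (AT5G54510, chromosome 5, 22130964 to 22133688) had 11.5, 48.6 and 39.4 FPKM in the salt-treated line, against 1.98, 2.74 and 2.56 in the untreated line (log2 fold change 4.02 ± 0.42, edgeR adjusted p = 9.2e-06). Its wild-type values were 4.24, 5.24 and 4.82 FPKM with salt, against 3.91, 5.86 and 4.78 without (0.17 ± 0.39, edgeR adjusted p = 0.72). The line's libraries were far apart with salt, replicate 1 being the lowest, but all lay above the untreated ones, whereas the wild-type ranges overlapped. GH3.5 had 4.62, 18.7 and 16.6 FPKM in the salt-treated line, against 3.32, 4.32 and 5.09 in the untreated line (log2 fold change 1.9 ± 0.47, edgeR adjusted p = 0.0039), with replicate 1 inside the untreated range. In wild type GH3.5 had 2.72, 2.91 and 4.43 FPKM with salt, against 2.65, 6.16 and 2.35 without (0.05 ± 0.47, edgeR adjusted p = 0.94). The wild-type values of GH3.5 and GH3.6 changed sign with library totals alone as scaling and were not called in any setting. GH3.3 had 3.79, 9.38 and 9.69 FPKM in the salt-treated line, against 1.68, 3.16 and 2.64 in the untreated line (log2 fold change 1.86 ± 0.32, edgeR adjusted p = 0.00035), and 2.25, 2.39 and 2.27 FPKM in salt-treated wild type, against 1.36, 1.9 and 1.68 in untreated wild type (0.69 ± 0.33, edgeR adjusted p = 0.097). Without replicate 1 of the salt-treated line, GH3.3 was called in wild type too (edgeR adjusted p = 0.012).

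Several GH3 and Aux/IAA genes carry other symbols in the table and are no members. Of 10 rows described as GH3 family without a GH3 symbol 4 reached a mean of 1 FPKM, and of 22 SAUR-like rows without a SAUR symbol 6 did. PBS3 (GH3.12), which makes a conjugate on the way to salicylate, had 74.2, 167 and 153 FPKM in the salt-treated line, against 28.8, 15.2 and 9.48 in the untreated line (log2 fold change 3.13 ± 0.40, edgeR adjusted p = 4.2e-05), and 17.04, 27.9 and 20.9 FPKM in salt-treated wild type, against 4.59, 4.01 and 3.70 in untreated wild type (2.62 ± 0.40, edgeR adjusted p = 0.00021). YDK1 (GH3.2), an auxin-conjugating enzyme named after its values were seen, had 1.69, 12.6 and 10.7 FPKM in the salt-treated line, against 0.64, 0.84 and 0.18 in the untreated line (log2 fold change 4.15 ± 0.73, edgeR adjusted p = 0.00042), and 0.76, 1.07 and 0.69 FPKM in salt-treated wild type, against 0.10, 0.59 and 0.34 in untreated wild type (1.49 ± 0.78, edgeR adjusted p = 0.13). As for GH3.6, replicate 1 was the lowest library of the salt-treated line for PBS3 and YDK1. Not every such row rose with salt. JAR1 (GH3.11) averaged 25.57 FPKM with salt against 34.59 without in the line, and 21.93 against 49.53 in wild type. DFL2 (GH3.10) averaged 9.79 FPKM against 15.32 in the line, where libraries overlapped, and 24.82 against 21.61 in wild type. SHY2 (IAA3) had 17.79, 4.87 and 4.98 FPKM in the salt-treated line, against 11.51, 11.08 and 10.47 in the untreated line.

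Between genotypes under salt, most called Aux/IAA and SAUR genes were lower, and the 3 called GH3 genes higher, in the line. Of the members 6 were called higher and 16 lower, 22 of 42 (52.4%), beside 34.6% of all genes tested (15.6% higher and 19.0% lower). By family 1 IAA was higher and 11 lower, 2 SAUR higher and 5 lower, and 3 GH3 higher and none lower, with median log2 fold changes of -0.88, -2.56 and 1.82 (-1.82 for SAUR with members without counts at their bound), beside -0.03 over all genes. Without replicate 1 of the salt-treated line 33 members were called, 8 higher and 25 lower, beside 53.9% of all genes, with 1 IAA higher and 19 lower, 3 SAUR higher and 6 lower, and 4 GH3 higher. Without replicate 3 of the salt-treated line 12 were called (15.9% of all genes), and without replicate 3 of salt-treated wild type 14 (19.7%). A fit of the 6 libraries of this comparison alone called 8, so 14 of the 22 calls were lost, beside 11.7% of all genes. The calls lost were those of GH3.5, IAA4, IAA5, IAA6, IAA7, IAA8, IAA9, IAA19, IAA26, IAA27, IAA28, SAUR24, SAUR36 and SAUR67. Each comparison of genotypes shares its libraries with a salt comparison, so they are not independent of each other.

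**Figure D4:**
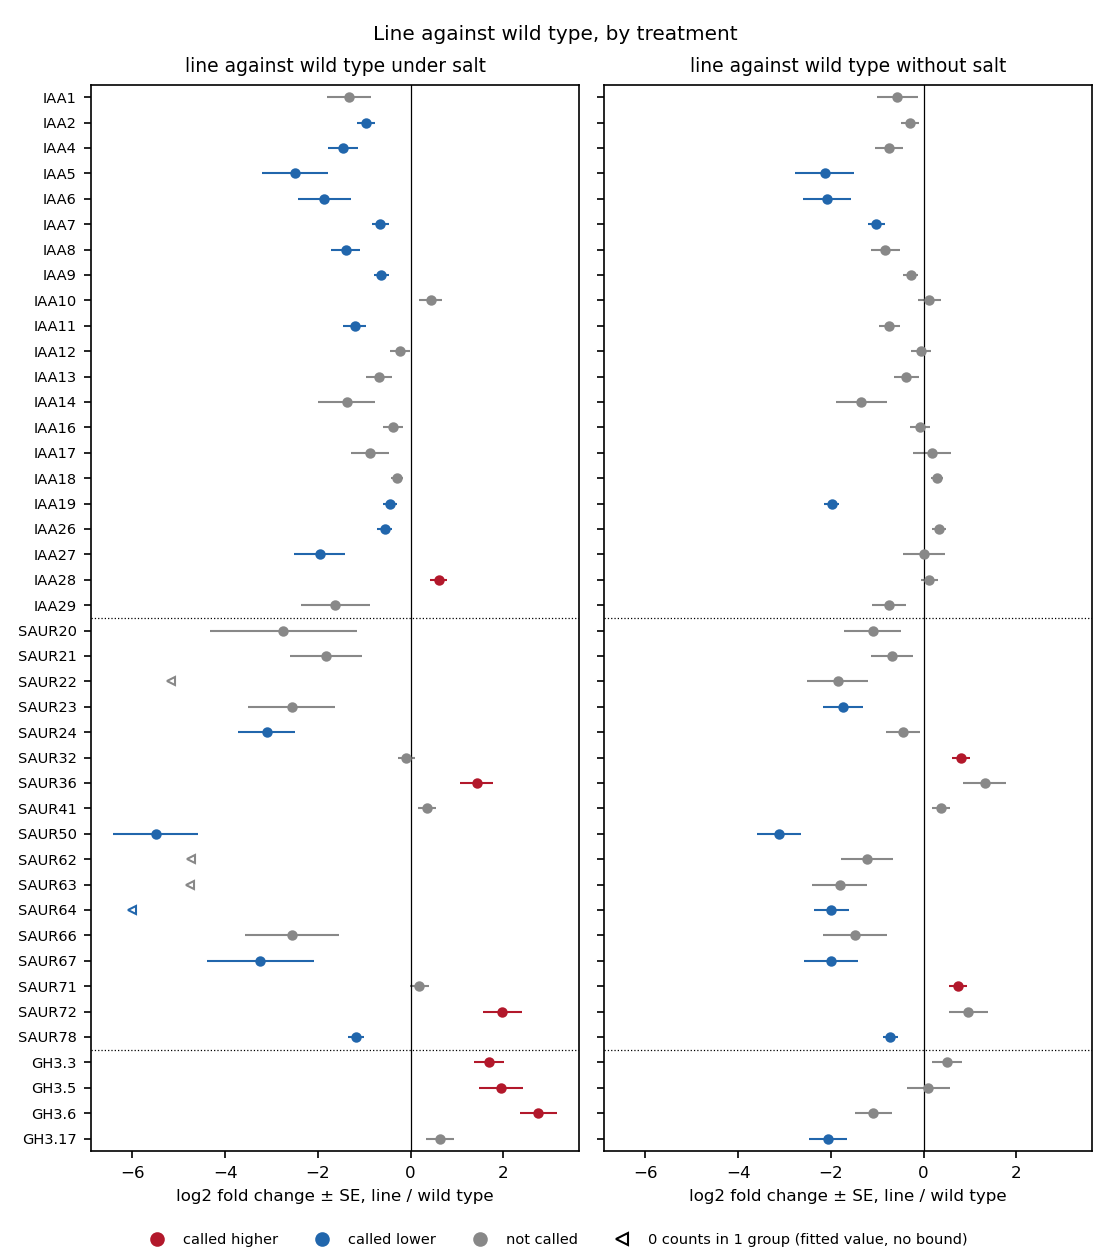
Log2 fold change of the line against wild type for the 42 members, under salt (left) and without salt (right), from the edgeR fit to counts, with bars for the standard error. Red points were called higher, blue ones lower and grey ones not called, and open triangles mark members without counts in the salt-treated line. Under salt the IAA values lie mostly left of 0, and GH3.6 (2.75) lies furthest to the right, while without salt most points are grey.

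Among Aux/IAA genes under salt, IAA28 was the 1 called higher in the line, at 16.2, 12.5 and 17.02 FPKM in the salt-treated line, against 10.3, 8.34 and 10.9 in salt-treated wild type (log2 fold change 0.60 ± 0.19, edgeR adjusted p = 0.03). IAA5 had 0.67, 0 and 0.28 FPKM in the salt-treated line, against 1.91, 1.82 and 1.37 in salt-treated wild type (-2.50 ± 0.71, edgeR adjusted p = 0.02). IAA6 had 1.56, 0.92 and 0.19 FPKM, against 2.70, 2.43 and 4.5 (-1.86 ± 0.57, edgeR adjusted p = 0.028). These low-level genes and IAA27 (log2 fold change -1.96, adjusted p = 0.019 by edgeR) were the lowest in the line relative to wild type, with no overlap of libraries. IAA5 passed the expression threshold through the wild-type groups. The other called IAA genes were IAA2 (-0.95), IAA4 (-1.45), IAA7 (-0.65), IAA8 (-1.40), IAA9 (-0.63), IAA11 (-1.21), IAA19 (-0.44) and IAA26 (-0.56), all lower. Of these 12 calls, those of IAA2, IAA4, IAA8 and IAA11 held on leaving out any single library. The calls of IAA4 and IAA8 were lost, however, in the fit of only the libraries compared.

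The other 8 IAA calls each ended on leaving out 1 library. These were replicate 3 of the salt-treated line for all 8. In addition they were replicate 2 of the salt-treated line for IAA6, IAA7, IAA9, IAA19 and IAA26, replicate 1 of salt-treated wild type for IAA5, IAA6, IAA19, IAA26 and IAA28, replicate 2 of it for IAA19 and IAA28, and replicate 3 of it for all but IAA5. For IAA19 they were also replicates 1 to 3 of untreated wild type. Adjusted p then reached between 0.06 for IAA9 and 0.16 for IAA19.

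SAUR72 (AT3G12830, chromosome 3, 4078651 to 4079627) was higher in the line under salt, at 42.4, 85.0 and 71.8 FPKM in the salt-treated line, against 16.97, 16.99 and 15.3 in salt-treated wild type (log2 fold change 1.98 ± 0.43, edgeR adjusted p = 0.0072). Without salt its values were 36.1, 81.7 and 44.6 FPKM in the line, against 16.7, 46.2 and 15.5 in wild type (0.96 ± 0.41, edgeR adjusted p = 0.14), where replicate 2 of each genotype was the highest and the ranges overlapped. SAUR36 was also higher, at 16.5, 45.8 and 44.7 FPKM in the salt-treated line, against 12.7, 14.3 and 11.7 in salt-treated wild type (1.42 ± 0.36, edgeR adjusted p = 0.013), a call that ended without replicate 2 or 3 of the salt-treated line or replicate 3 of salt-treated wild type (adjusted p up to 0.054). Of the called SAUR genes, SAUR50, SAUR64 and SAUR67 had the lowest fitted values. SAUR50 had 2 counts in the salt-treated line and 108 in salt-treated wild type (ratio 50.9, interval 13.7 to 425; edgeR adjusted p = 0.0031). SAUR64 had 0 and 22 counts, at least 6.91-fold lower (edgeR adjusted p = 0.0062). SAUR67 had 2 and 23 counts (ratio 10.8, interval 2.68 to 94.8).

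SAUR24 (-3.11) and SAUR78 (-1.17) were the other SAUR genes called lower under salt. The SAUR67 call (edgeR adjusted p = 0.048) was lost without any 1 of 9 libraries, namely replicate 2 or 3 of the salt-treated line, any replicate of the untreated line, replicate 2 or 3 of salt-treated wild type and replicate 1 or 3 of untreated wild type (adjusted p up to 0.24), and its libraries overlapped. Dropping replicate 1 of the salt-treated line left it with no count and a fitted value of -6.10, which is no bound, and its value was -1.96 without replicate 2 of salt-treated wild type. SAUR20, SAUR22, SAUR62 and SAUR63 were not called here, with 1, 0, 0 and 0 counts in the salt-treated line, against 9, 12, 9 and 9 in salt-treated wild type, where the depth limits what could be seen.

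For GH3.6 the level under salt was 33.2 ± 19.3 FPKM in the line and 4.77 ± 0.50 in wild type (mean ± SD, n = 3 each; log2 fold change 2.75 ± 0.40, edgeR adjusted p = 0.0022). GH3.5 averaged 13.3 ± 7.58 FPKM in the salt-treated line and 3.35 ± 0.94 in salt-treated wild type (1.95 ± 0.47, edgeR adjusted p = 0.011), and GH3.3 averaged 7.62 ± 3.32 and 2.30 ± 0.08 (1.68 ± 0.32, edgeR adjusted p = 0.0044). All libraries of the salt-treated line lay above all those of salt-treated wild type for these 3 genes. The call of GH3.5 was lost in the fit of only the libraries compared. GH3.17 averaged 5.85 ± 1.92 FPKM in the salt-treated line and 3.69 ± 0.33 in salt-treated wild type, with overlapping libraries (0.63 ± 0.30, edgeR adjusted p = 0.12).

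Without salt 12 members were called between genotypes, against 22 under salt, an order that turned round (22 against 8) in fits of only the libraries compared. The line had 2 members called higher and 10 lower, 12 of 42 (28.6%), beside 13.9% of all genes tested (7.34% higher and 6.58% lower). By family the calls were 0 higher and 4 lower for IAA, 2 higher and 5 lower for SAUR, and 0 higher and 1 lower for GH3. The median log2 fold change over members was -0.70, beside 0.01 over all genes. Without replicate 1 of the salt-treated line, a library that is not in this comparison but shares its estimate of the spread, 21 members were called beside 30.1% of all genes, with 8 IAA lower, 3 SAUR higher and 8 lower, and 2 GH3 lower. Leaving out replicate 1 or 2 of the untreated line or replicate 1 of untreated wild type left 7 calls, and leaving out replicate 3 of untreated wild type left 6 (6.81% to 8.5% of all genes).

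IAA19 had the IAA difference with the smallest adjusted p without salt, at 3.68, 5.16 and 5.34 FPKM in the untreated line, against 16.3, 17.03 and 19.2 in untreated wild type (log2 fold change -1.98 ± 0.16, edgeR adjusted p = 0.00012). IAA5 had 0.76, 0.50 and 0.32 FPKM in the untreated line, against 2.05, 1.52 and 3.05 in untreated wild type (-2.14 ± 0.64, edgeR adjusted p = 0.045), and IAA6 1.21, 2.30 and 4.20 FPKM, against 10.6, 9.50 and 10.7 (-2.09 ± 0.51, edgeR adjusted p = 0.02). IAA7 was the fourth, at a log2 fold change of -1.02. The IAA5 call was lost without any 1 of 10 libraries (all but replicates 1 and 2 of the salt-treated line, adjusted p up to 0.16), and that of IAA6 without replicate 1 or 2 of the untreated line or replicate 1 or 3 of untreated wild type (up to 0.077).

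SAUR50 was again far lower in the line, at 2.38, 2.76 and 3.13 FPKM in the untreated line, against 27.3, 13.3 and 26.5 in untreated wild type (log2 fold change -3.11 ± 0.48, edgeR adjusted p = 0.0021). SAUR64 had 1.98, 1.75 and 2.11 FPKM in the untreated line, against 8.97, 3.56 and 9.26 (-1.99 ± 0.38, edgeR adjusted p = 0.0091), and SAUR67 1.27, 1.75 and 1.59 FPKM, against 7.25, 2.90 and 7.08 (-1.99 ± 0.58, edgeR adjusted p = 0.041). SAUR23 (-1.74) and SAUR78 (-0.72) were also called lower. The FPKM of these 5 genes did not overlap between genotypes, which was not counted over all genes. SAUR32 was higher, at 31.7, 40.0 and 37.7 FPKM in the untreated line, against 24.4, 16.1 and 18.2 in untreated wild type (0.81 ± 0.18, edgeR adjusted p = 0.015). So was SAUR71, at 54.8, 84.2 and 63.3 FPKM, against 36.2, 45.4 and 32.1 (0.74 ± 0.20, edgeR adjusted p = 0.032). GH3.17 was lower, at 0.07, 0.25 and 0.24 FPKM in the untreated line, against 0.55, 1.00 and 0.68 in untreated wild type (-2.06 ± 0.41, edgeR adjusted p = 0.0076).

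The calls of SAUR23, SAUR32, SAUR67, SAUR71 and SAUR78 without salt each ended on leaving out 1 library. For SAUR67 it was any replicate of the untreated line or replicate 1 or 3 of untreated wild type (adjusted p up to 0.14), for SAUR23 replicate 1 of the untreated line or replicate 1 or 3 of untreated wild type (up to 0.085). For SAUR32 it was replicate 2 of the untreated line or replicate 2 or 3 of untreated wild type (up to 0.064), for SAUR71 replicate 2 of the untreated line or replicate 1 or 3 of untreated wild type (up to 0.12), and for SAUR78 replicate 1 of the untreated line or replicate 3 of untreated wild type (up to 0.062). SAUR50, SAUR64, IAA7, IAA19 and GH3.17 kept their calls on leaving out any 1 library.

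The interaction is the log2 fold change with salt in the line, less the one in wild type, and tests whether the salt response differed between genotypes. Of the members 4 were called, 3 positive and 1 negative (9.52%), beside 5.88% of all genes tested (2.92% positive and 2.95% negative). With library totals alone as scaling 3 were positive and 3 negative. GH3.6 responded to salt in the line and not detectably in wild type (interaction 3.84 ± 0.56, edgeR adjusted p = 0.0088). GH3.17 rose in both, by more in the line (2.69 ± 0.51, edgeR adjusted p = 0.019), starting there from 0.19 ± 0.10 FPKM without salt, against 0.74 ± 0.23 in wild type (mean ± SD, n = 3 each). IAA19 (AT3G15540, chromosome 3, 5264001 to 5265695) moved in opposite directions (1.54 ± 0.23, edgeR adjusted p = 0.0089). It had 7.73, 7.18 and 7.93 FPKM in the salt-treated line, against 3.68, 5.16 and 5.34 in the untreated line (log2 fold change 0.95 ± 0.16, edgeR adjusted p = 0.00035), and 9.26, 10.4 and 10.8 FPKM in salt-treated wild type, against 16.3, 17.03 and 19.2 in untreated wild type (-0.59 ± 0.16, edgeR adjusted p = 0.0075). Its libraries did not overlap in either genotype, and the 2 genotypes stood closer together with salt than without.

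IAA26 (AT3G16500, chromosome 3, 5612203 to 5614803), known to bind phytochrome, had the negative interaction (-0.89 ± 0.22, edgeR adjusted p = 0.042). It had 13.0, 9.15 and 10.9 FPKM in the salt-treated line, against 13.0, 16.3 and 15.2 in the untreated line (log2 fold change -0.17 ± 0.16, edgeR adjusted p = 0.38), and 15.8, 14.9 and 17.2 FPKM in salt-treated wild type, against 9.88, 12.9 and 10.6 in untreated wild type (0.72 ± 0.16, edgeR adjusted p = 0.0023). So it was higher with salt in wild type, while the line's libraries met at 13.0 FPKM. This call was lost without any 1 library other than replicate 1 of the salt-treated line (adjusted p up to 0.098). That of GH3.17 lost it without replicate 1 or 2 of salt-treated or replicate 2 of untreated wild type (up to 0.057). The interactions of GH3.6 and IAA19 kept theirs on leaving out any 1 library (up to 0.035). The count of called members was 2 without replicate 1 or 2 of salt-treated or replicate 2 of untreated wild type (0.757% to 1.57% of all genes).

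Replicate 1 of the salt-treated line decided how many interactions were called. Without it 20 members were called, 5 positive and 15 negative, beside 36.8% of all genes tested. The 20 were all 4 GH3 genes (positive), 12 IAA genes (1 positive and 11 negative) and 4 SAUR genes (negative), and all 4 of the full data were among them. GH3.3 then had an interaction of 1.49 (edgeR adjusted p = 0.0025) and GH3.5 one of 2.25 (edgeR adjusted p = 0.0018), while IAA17 had -1.96 (edgeR adjusted p = 6.2e-05) and IAA27 -2.77 (edgeR adjusted p = 0.0041).

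**Figure D5:**
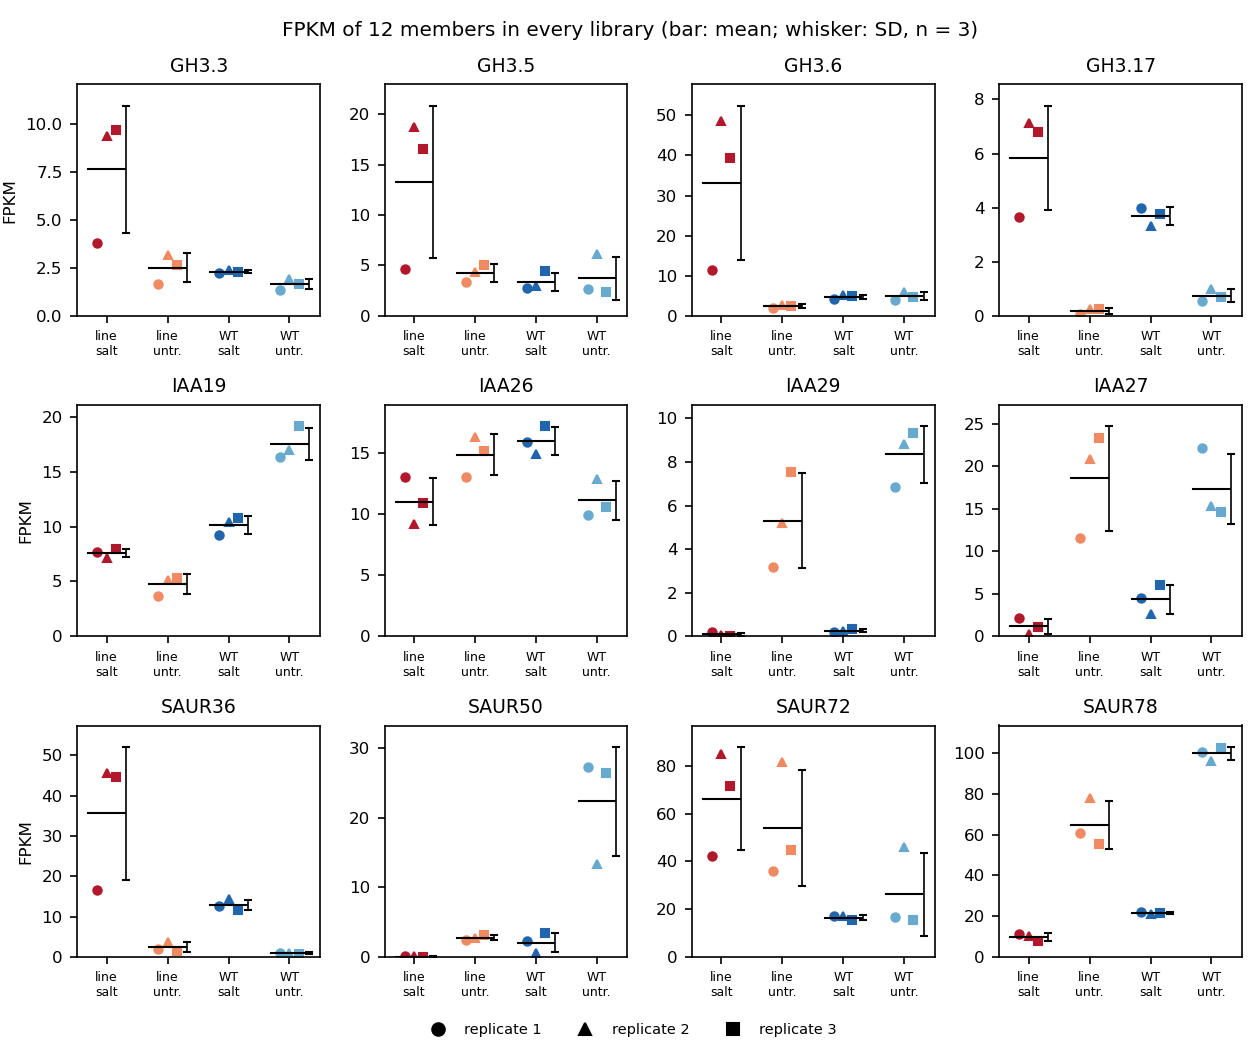
FPKM of 12 members in every library, from 0 on a linear axis, with salt left of untreated and the line left of wild type. Points are libraries (circle replicate 1, triangle replicate 2, square replicate 3), bars the group mean and whiskers the SD (n = 3). GH3.6 is high in the salt-treated line alone, IAA19 is nearer between genotypes with salt than without, and replicate 1 is the lowest salt-treated line library for each GH3 gene and SAUR36.

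Genes that act before and around these families were counted from lists of the pathway. All values are read from the same fit, and the comparisons share libraries as before. Over all genes tested, 64.8% were called with salt in the line (31.4% higher and 33.5% lower), and 53.8% in wild type (27.1% and 26.7%). Between genotypes the shares were 34.6% under salt and 13.9% without, and 5.88% in the interaction. In the line the called shares of receptors, ARFs, inactivation and release genes and PP2C.D phosphatases lay near the 64.8% of all genes. Most TIR1/AFB receptors fell. Of 6 tested, 0 were higher and 4 lower with salt in the line, and 0 higher and 5 lower in wild type. AFB5 had 15.5, 12.1 and 11.9 FPKM in the salt-treated line, against 63.5, 52.9 and 62.1 in the untreated line (log2 fold change -1.91 ± 0.15, edgeR adjusted p = 9.4e-07), and AFB2 had 12.8, 12.8 and 13.2 FPKM in salt-treated wild type, against 29.5, 33.3 and 34.0 in untreated wild type (log2 fold change -1.12 ± 0.13, edgeR adjusted p = 3.3e-05). AFB2 had the smallest adjusted p of the list in the interaction as well (0.71 ± 0.19, edgeR adjusted p = 0.048). Of 15 ARFs 3 were higher and 7 lower in the line, and 2 higher and 4 lower in wild type. ARF11 had the smallest adjusted p of the list in both, at 3.32, 2.19 and 2.90 FPKM in the salt-treated line, against 9.13, 8.48 and 8.67 untreated (log2 fold change -1.38 ± 0.16, edgeR adjusted p = 1.8e-05), and at 3.24, 3.68 and 3.72 in salt-treated wild type, against 7.96, 9.09 and 8.06 untreated (-1.04 ± 0.16, edgeR adjusted p = 0.00018).

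Most auxin transport genes fell. Of 12 tested 1 was higher and 10 lower with salt in each genotype, with median log2 fold changes of -2.93 in the line and -2.40 in wild type. PIN7, an auxin efflux carrier, had 2.54, 0.98 and 1.27 FPKM in the salt-treated line, against 12.8, 11.8 and 14.9 in the untreated line (log2 fold change -2.78 ± 0.29, edgeR adjusted p = 8.1e-06), and 2.91, 3.34 and 3.56 FPKM in salt-treated wild type, against 28.7, 31.2 and 27.4 in untreated wild type (-2.96 ± 0.28, edgeR adjusted p = 5.8e-06). Of 3 synthesis genes above the threshold 0 were higher and 1 lower in each genotype, TAA1, which makes the precursor of auxin from tryptophan. TAA1 had 0.98, 0.15 and 0.46 FPKM in the salt-treated line, against 5.08, 5.79 and 6.58 in the untreated line (log2 fold change -3.22 ± 0.46, edgeR adjusted p = 9.1e-05), and 0.56, 0.64 and 0.35 FPKM in salt-treated wild type, against 4.41, 5.12 and 4.15 in untreated wild type (-2.92 ± 0.45, edgeR adjusted p = 0.00022). The called transport genes, all but 1 lower, and the 1 called synthesis gene moved in the direction of most called IAA and SAUR genes. The called GH3 genes moved the other way, and a link was not tested.

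Genes that inactivate auxin or release it from conjugates were higher where called. Of 9 tested 6 were higher and 0 lower with salt in each genotype. ILR1, a hydrolase that frees auxin from amino acid conjugates, had 40.1, 77.4 and 81.2 FPKM in the salt-treated line, against 8.14, 5.72 and 8.37 in the untreated line (log2 fold change 3.41 ± 0.25, edgeR adjusted p = 6.1e-07), and 26.5, 30.1 and 24.5 FPKM in salt-treated wild type, against 5.37, 5.80 and 4.87 in untreated wild type (2.54 ± 0.24, edgeR adjusted p = 6.1e-06). Of 9 PP2C.D phosphatases 4 were higher and 2 lower in the line, and 3 higher and 2 lower in wild type. PP2C.D5, with the smallest adjusted p, had 12.04, 11.6 and 11.1 FPKM in the salt-treated line, against 40.6, 55.2 and 50.6 in the untreated line (log2 fold change -1.81 ± 0.13, edgeR adjusted p = 4.5e-07), and fell in wild type too (-1.43 ± 0.13, edgeR adjusted p = 3e-06). Of 5 PIF genes 1 was higher and 2 lower in each genotype. PIF1 had 0.89, 0.85 and 0.63 FPKM in the salt-treated line, against 10.3, 10.2 and 7.82 in the untreated line (log2 fold change -3.31 ± 0.20, edgeR adjusted p = 1.5e-07), and 1.62, 1.59 and 1.96 FPKM in salt-treated wild type, against 5.97, 7.95 and 6.58 in untreated wild type (-1.78 ± 0.19, edgeR adjusted p = 1.1e-05), with a negative interaction (-1.52 ± 0.27, edgeR adjusted p = 0.015).

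Between genotypes under salt, 8 of 12 transport genes were lower and 1 higher in the line, the smallest adjusted p being that of LAX3, an auxin influx carrier (log2 fold change -4.12 ± 0.83, edgeR adjusted p = 0.0056). The receptors had 1 higher and 2 lower, led by AFB5 (-0.73 ± 0.14, edgeR adjusted p = 0.0055), and the ARFs 2 higher and 4 lower, led by ARF3 (-1.48 ± 0.30, edgeR adjusted p = 0.0061). Inactivation and release genes had 2 higher and 0 lower, led by ILR1 (1.25 ± 0.23, edgeR adjusted p = 0.0039), PP2C.D phosphatases 1 higher and 1 lower, led by PP2C.D5 (-0.52 ± 0.12, edgeR adjusted p = 0.011), and PIF genes 0 higher and 1 lower, PIF1 (-1.15 ± 0.20, edgeR adjusted p = 0.0036). No synthesis gene was called (YUC6, -0.35 ± 0.30, edgeR adjusted p = 0.38).

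Without salt the line differed from wild type in 1 transport gene higher and 3 lower, led by ABCB19 (log2 fold change -1.60 ± 0.27, edgeR adjusted p = 0.0034), in 1 receptor, TIR1, lower (-0.68 ± 0.14, edgeR adjusted p = 0.0085), and in 1 ARF, ARF16, higher (0.66 ± 0.15, edgeR adjusted p = 0.012). DAO1, which oxidises auxin, was the 1 inactivation gene called, higher in the line (0.86 ± 0.20, edgeR adjusted p = 0.014). PP2C.D phosphatases had 0 higher and 2 lower, led by PP2C.D1 (-2.52 ± 0.60, edgeR adjusted p = 0.017), and no synthesis gene (TAR2, -0.69 ± 0.49, edgeR adjusted p = 0.38) or PIF gene (PIF4, 0.54 ± 0.17, edgeR adjusted p = 0.052) was called. In the interaction 1 receptor was positive and 1 negative and 1 PIF gene negative. No ARF (ARF5, 1.52 ± 0.50, edgeR adjusted p = 0.085), synthesis (YUC6, -0.43 ± 0.42, edgeR adjusted p = 0.52), transport (LAX3, -3.14 ± 1.01, edgeR adjusted p = 0.08), inactivation (DAO1, -0.77 ± 0.27, edgeR adjusted p = 0.11) or PP2C.D gene (PP2C.D5, -0.39 ± 0.17, edgeR adjusted p = 0.18) was called there.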

How the data were processed

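Read counts per gene and FPKM of 12 libraries were used as the authors deposited them in 1 table. Per the submitters' processing notes, HISAT2 2.0.1, cutadapt 1.9.1 and bcl2fastq 2.17.1.14 were used, with the TAIR10 build. The counting program is not given in the sources used here, nor is the strand setting or the treatment of reads that match several genes. The deposited FPKM were recalculated from the counts, gene lengths and library totals within 0.005.

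Counts of the 17038 genes with a mean of at least 1 FPKM were fitted with edgeR 4.0.16 in R 4.3.3 (TMM factors, quasi-likelihood test, 12 libraries and 4 group means in 1 model, Benjamini-Hochberg over all genes tested, called at an adjusted p under 0.05). Each log2 fold change is given ± its standard error. Overlap of libraries was read from FPKM and was not counted over all genes. A gene with 0 counts in a group was bounded with 3 counts over the group, and ratios of few counts carry exact binomial intervals, both for counting error only. Alternatives used DESeq2 1.42.0, limma 3.58.1 on log2(FPKM + 1) or log2(FPKM + 0.1), other scalings and filters, a replicate block, only the libraries compared, and leaving out each library. On simulated counts of 17038 genes for salt in the line, 100% of 100 genes changed by 2 and 88% of 100 changed by 1 (log2) were recovered. The simulation gave all genes the same spread, changed only well-counted genes and held no library that stood apart. It therefore does not cover members with few counts or replicate 1 of the salt-treated line. The share recovered in the measured libraries was not tested. With salt in the line IAA14 (log2 fold change -1.39) and IAA6 (-1.26) were not called.

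Per comparison and family, up to 3 called members with the highest and up to 3 with the lowest fold change are given by library, and up to 6 called interactions. Of each pathway list the gene with the smallest adjusted p is given. The members and lists were chosen with earlier results of these data known.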

Additional observations from a re-analysis of the deposited data

Results flagged for a closer look

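The salt responses of 4 members differed between the line and wild type by the interaction term, in which the line's log2 response has that of wild type subtracted. The difference was 3.84 for GH3.6, 2.69 for GH3.17 and 1.54 for IAA19, all larger in the line, and -0.89 for IAA26. IAA19 is the 1 of them that rose with salt in the line and fell in wild type. In the salt-treated line replicate 1 was the lowest library for GH3.6 and GH3.17, the middle one for IAA19 and the highest for IAA26, and its part in the differences was measured by leaving it out, after which all 4 were still called.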

How the results depend on the processing

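Each called value kept its direction in every setting that gave it a value, and the values that turned round were not called in the full data. The minimum of 5 FPKM left out 18 of the 42 members, and the interaction has no fit of only the libraries compared. A minimum mean of 5 FPKM, which tests fewer genes, left 20 members called for salt in the line, 16 for salt in wild type and 6 for the line against wild type without salt. Fits of only the libraries compared, which no longer share the spread of the others, called 8 members between genotypes under salt (11.7% of all genes) and 22 without salt (23.4%). In the interaction DESeq2 called 8 members (4 positive and 4 negative, with 14.9% of all genes) and limma with a pseudocount of 0.1 called 7 (7.75%); the cause was not tested. Leaving out 1 library gave 32 to 38 calls for salt in the line, 25 to 33 for salt in wild type, 12 to 33 between genotypes under salt, 6 to 21 without salt and 2 to 20 in the interaction. Library totals alone as scaling moved the median log2 fold change of all genes to -0.31 with salt in the line and -0.22 in wild type. The share of higher calls over all genes was then 34.9% in place of 48.4% in the line, 36.8% in place of 50.4% in wild type, 66.4% in place of 52.7% between genotypes without salt, and 32.8% in place of 49.8% in the interaction.

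Same-numbered libraries of different groups did not visibly deviate together (18 pairs, r between -0.259 and 0.239, median 0.019, with 4 over 0.1, beside a median of 0.002 in 36 other pairs). No pairing by number was seen. The deviations within each group of 3 sum to 0, so these values cannot exclude a pairing. A replicate block gave 33 calls for salt in the line, 30 in wild type, 22 between genotypes under salt, 12 without salt and 3 in the interaction. It ended the calls of IAA19 and SAUR67 under salt, IAA5 and SAUR67 without salt and IAA26 in the interaction, and gained GH3.3 and SAUR71 with salt in wild type, IAA1 and IAA17 under salt and GH3.6 and SAUR72 without salt.

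Values not called in the full data that turned round were these, as log2 fold changes. With limma at pseudocounts of 1 and 0.1, IAA17 with salt in the line was -0.157 and -0.198. With salt in wild type GH3.5 was -0.154 with library totals, -0.046 at the higher FPKM minimum and -0.05 and -0.044 with limma, and GH3.6 was -0.027 with library totals and -0.011 with limma at both pseudocounts. For the line against wild type without salt, IAA12 was 0.039 with library totals and 0.037 and 0.039 with limma, IAA16 was 0.008 with library totals and 0.007 with limma at both, and IAA27 was -0.006 with median-of-ratios scaling, -0.007 with DESeq2 and -0.011 at the higher FPKM minimum. In the interaction IAA14 was 0.005 with median-of-ratios scaling, 0.022 with DESeq2 and 0.117 with limma at a pseudocount of 1, and SAUR41 was 0.024 with median-of-ratios scaling and DESeq2. Also in the interaction, limma at a pseudocount of 1, which compresses low levels, gave 0.397 for IAA29, 0.479 for SAUR20, 0.148 for SAUR21, 0.768 for SAUR22, 0.932 for SAUR23, 1.15 for SAUR50, 0.482 for SAUR62, 0.93 for SAUR63, 0.91 for SAUR64, 0.287 for SAUR66 and 0.905 for SAUR67, and at 0.1 it gave 0.137 for SAUR22, 0.172 for SAUR23, 0.107 for SAUR63 and 0.018 for SAUR67.

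On leaving out 1 library, values not called in the full data turned round as follows. For salt in the line, IAA5 ranged between -1.702 and 0.112, IAA17 between -0.547 and 0.651 and IAA18 between -0.137 and 0.015. For salt in wild type, GH3.5 ranged between -0.166 and 0.607, IAA5 between -0.389 and 0.167 and SAUR72 between -0.7 and 0.219. Between genotypes under salt, SAUR32 ranged between -0.216 and 0.063. Between genotypes without salt, GH3.5 ranged between -0.13 and 0.663, IAA10 between -0.067 and 0.294, IAA12 between -0.164 and 0.035 and IAA27 between -0.19 and 0.25. In the interaction, IAA5 ranged between -1.556 and 0.287, IAA6 between -0.419 and 0.775, IAA14 between -1.396 and 0.498, SAUR21 between -1.558 and 0.158, SAUR36 between -0.151 and 0.585, SAUR41 between -0.185 and 0.116 and SAUR67 between -4.114 and 0.029. Counts limit what can be said of SAUR genes in the salt-treated line, where 4 had none and 4 others 1 to 3 over the group.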
